A study of Homo sapiens with 24 samples.

Results

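A771726, the active metabolite of leflunomide, inhibits DHODH, the mitochondrial enzyme that carries de novo pyrimidine synthesis from dihydroorotate to orotate. Cells given nucleotides can fill their pyrimidine pools by salvage, so the drug was set against its control with nucleotides in both arms. This asks for effects on RNA that remain when nucleotides are supplied. RNA values do not measure nucleotide pools, so whether the supply ended the shortage fully was not tested. An effect of a remaining shortage and one that needs no shortage cannot be told apart here. Of the 24 libraries of the series, 12 enter this comparison. They are 6 libraries of A375 cells treated with 25 µM A771726 and nucleotides (3 at 24 h and 3 at 48 h) and 6 libraries treated with nucleotides alone (3 at 24 h and 3 at 48 h). Another 6 libraries, 3 with 25 µM A771726 and 3 with DMSO, the solvent, at 24 h, give the response without nucleotides. A375 is an established human melanoma line with mutant BRAF, so every result comes from a single line. All groups grew in medium with heat-inactivated fetal bovine serum. Which nucleotides were added, and at what dose, is not given in the sources used here. Neither is whether the libraries of a group come from separate cultures, so p-values measure the spread between libraries, which may be technical. Each library pools a whole culture, so fewer cells that express a gene and less RNA per cell cannot be told apart.

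Other activities of A771726 have been described apart from DHODH. The drug and its parent compound are ligands of the aryl hydrocarbon receptor (AhR), a transcription factor that binds DNA together with ARNT and induces CYP1A1, TIPARP and AHRR. The peroxisome proliferator-activated receptors (PPARs) are nuclear receptors that pair with RXR, respond to fatty acids and related lipids, and induce ANGPTL4, PDK4 and PLIN2. ANKRD1 is a widely used target of the YAP coactivator, which binds DNA through TEAD factors and responds to cell shape and adhesion.

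Values are FPKM, fragments per unit of transcript length and of mapped fragments, and read depth is unknown. A375 markers were present in all 12 libraries: SOX10, a neural crest and melanocyte factor, lay between 23.4 and 83.7 FPKM and S100B between 21.6 and 39.7 FPKM. The pigment genes TYR, TYRP1, DCT, PMEL and MLANA were all below 1 FPKM in all 12 libraries. Of 16 melanoma markers 11 reached a mean of 1 FPKM over the 12 libraries. So did 2 of 9 keratinocyte, 2 of 7 fibroblast, 0 of 5 endothelial and 2 of 12 leukocyte markers. FPKM sums ran from 573390 to 682517 in the 6 libraries with A771726 and nucleotides and from 597569 to 773002 in the 6 with nucleotides alone. The mean sums of 620840 and 678767 differed (exact permutation within each time, two-sided p = 0.03, smallest possible 0.005). Replicate 2 of A771726 with nucleotides at 24 h and replicate 3 of nucleotides alone at 48 h stood apart, with median rank correlations to the other libraries of 0.928 and 0.927, against 0.963 to 0.972 for the other 10. Results that change without these libraries are given both ways below.

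Promoter sequences of the leading genes are shown first because the genes belong to pathways with known DNA motifs. They are the 250 bases before the annotated start, 5′ to 3′ on the gene's strand, from RefSeq on GRCh38.p14. Capitals mark GCGTG, the core of the AhR response element, in CYP1A1 (chr15:74725529-74725778, minus strand) and ALDH1A3 (chr15:100879581-100879830, plus strand). In ANKRD1 (chr10:90921088-90921337, minus strand) they mark GGAATG, the core of the TEAD motif. In ANGPTL4 (chr19:8363905-8364154, plus strand) AGGTCA, the core hexamer bound by nuclear receptors, was searched and no base is in capitals. Both strands were searched for each motif, and no 2 matches overlap.
CYP1A1: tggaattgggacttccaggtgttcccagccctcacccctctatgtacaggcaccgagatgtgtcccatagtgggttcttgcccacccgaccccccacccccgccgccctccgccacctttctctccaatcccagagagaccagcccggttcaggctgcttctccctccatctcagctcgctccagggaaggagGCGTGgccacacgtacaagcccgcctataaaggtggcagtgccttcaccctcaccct
ALDH1A3: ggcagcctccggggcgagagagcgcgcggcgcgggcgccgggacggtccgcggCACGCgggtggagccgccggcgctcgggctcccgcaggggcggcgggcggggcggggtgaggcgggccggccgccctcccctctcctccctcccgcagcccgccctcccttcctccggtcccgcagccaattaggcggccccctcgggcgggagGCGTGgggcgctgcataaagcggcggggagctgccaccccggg
ANKRD1: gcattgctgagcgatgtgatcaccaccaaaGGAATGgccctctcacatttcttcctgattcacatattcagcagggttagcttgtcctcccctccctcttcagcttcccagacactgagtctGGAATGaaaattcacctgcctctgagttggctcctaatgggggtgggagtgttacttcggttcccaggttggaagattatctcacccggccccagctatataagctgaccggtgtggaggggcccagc
ANGPTL4: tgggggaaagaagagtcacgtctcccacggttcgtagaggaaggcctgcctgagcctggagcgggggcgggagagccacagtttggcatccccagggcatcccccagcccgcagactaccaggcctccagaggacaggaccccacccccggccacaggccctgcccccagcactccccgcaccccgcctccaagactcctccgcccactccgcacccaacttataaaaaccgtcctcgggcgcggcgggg
The CYP1A1 match begins 57 bases before the start, and those of ALDH1A3 197 and 43 bases before it, the first of them on the opposite strand. The ANKRD1 matches begin 220 and 128 bases before the start. Of 35116 RefSeq promoters of the same length, 32.2% hold GCGTG, 11.9% hold GGAATG and 12.1% hold AGGTCA, so matches are common and describe the letters only. AGGTCA is not in the window of PDK4 or PLIN2 either. The PPAR response element described for human ANGPTL4 lies in an intron, outside the window shown.

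Over both times, with time as a block, limma called 2 of 11398 genes (0.0175%) at a Benjamini-Hochberg adjusted p under 0.05, of which 1 was higher and 1 lower. The count depends on the setting: it was 13 without both libraries that stood apart, 9 under TPM scaling (8 higher, 1 lower) and 239 with limma's library weights (145 higher, 94 lower). ANGPTL4, a secreted inhibitor of lipoprotein lipase, rose, and ANKRD1, an ankyrin repeat protein of muscle and of cells under mechanical load, fell. At an unadjusted p under 0.05 there were 290 genes (2.54%), 140 higher (1.23%) and 150 lower (1.32%). Over both times and on the scale of FPKM + 1, 94.3% of the genes had a 95% confidence interval within 1.5-fold of no change and 98.3% within 2-fold. Taken by time, 74.5% at 24 h and 75.3% at 48 h were within 1.5-fold. Every log2 fold change here was computed on log2(FPKM + 1), where changes of low genes come out too small.

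ANGPTL4 was listed at 2.34, 1.75 and 2.79 FPKM with A771726 and nucleotides at 24 h, against 0.373, 0.335 and 0.508 FPKM with nucleotides alone. At 48 h it stood at 3.02, 3.49 and 3.37 FPKM with A771726 and nucleotides, against 0.397, 0.429 and 0.766 FPKM with nucleotides alone. Every library with the drug lay above every library without it, at both times. Mean FPKM was 5.66-fold higher at 24 h and 6.21-fold higher at 48 h. The log2 fold change over both times was 1.36 ± 0.10 (SE, 6 against 6 libraries, limma, adjusted p = 0.000155), and the call held in all 24 other settings in which the gene was tested, with adjusted p between 1.57e-08 and 0.00704. Without nucleotides ANGPTL4 was at 3.45, 3.02 and 2.96 FPKM with A771726, against 0.666, 0.616 and 0.585 FPKM in DMSO, a log2 change of 1.35 (limma, adjusted p = 0.00137). The responses with and without nucleotides at 24 h differed by -0.13 on the log2 scale, with a 95% confidence interval from -0.51 to 0.24 (limma interaction, adjusted p = 0.83). ANGPTL4 thus showed a response of measured size in both media, with no difference detected between them.

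ANKRD1 was listed at 1.99, 1.76 and 2.02 FPKM with A771726 and nucleotides at 24 h, against 3.71, 4.66 and 3.76 FPKM with nucleotides alone. At 48 h the values were 1.26, 1.66 and 1.24 FPKM with A771726 and nucleotides, against 2.77, 3.03 and 2.08 FPKM with nucleotides alone. The groups did not overlap at either time. The log2 fold change was -0.69 ± 0.09 (SE, 6 against 6 libraries, limma, adjusted p = 0.0307). This call is fragile: it held when 2 of the 12 libraries were left out in turn and was lost with the other 10 (adjusted p from 0.00367 to 0.151), and quantile normalization ended it too. Without nucleotides ANKRD1 stood at 0.362, 0.466 and 0.183 FPKM with A771726, against 4.56, 4.30 and 3.94 FPKM in DMSO. That fall, -1.98 on the log2 scale (limma, adjusted p = 0.000673), was larger than the fall with nucleotides at 24 h by 1.20 (limma interaction, adjusted p = 0.00198).

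**Figure D1:**
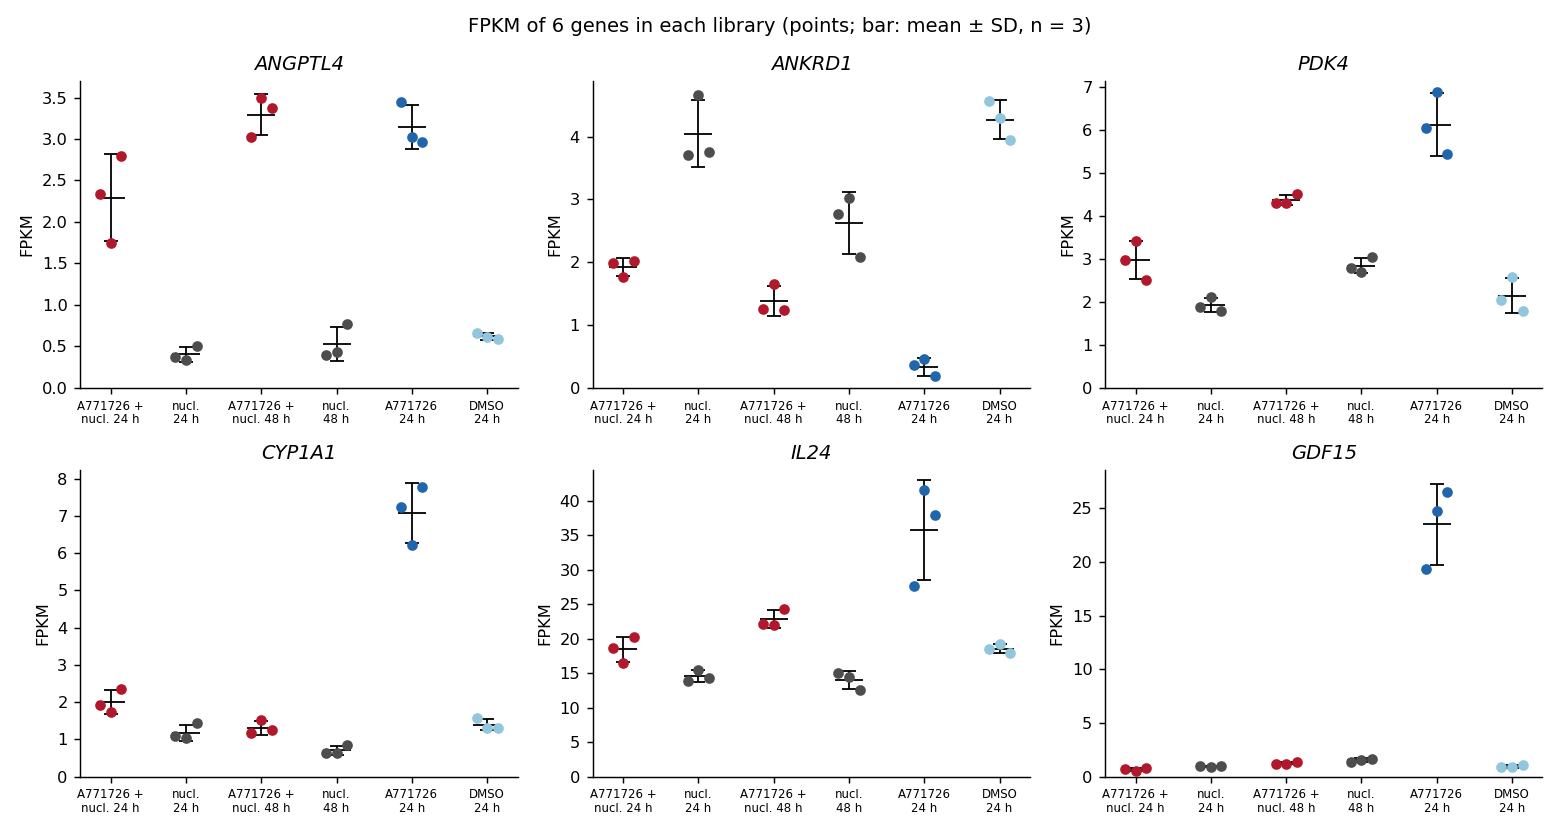
FPKM (vertical axes, starting at 0) of 6 genes in each library, with groups along the horizontal axes, A771726 left of its control; bars give the mean ± SD of 3 libraries. ANGPTL4 stood at 1.75 to 3.49 FPKM in all 6 libraries with A771726 and nucleotides and at 0.335 to 0.766 FPKM with nucleotides alone, while GDF15 averaged 23.5 FPKM with A771726 in the absence of nucleotides and 0.662 to 1.52 FPKM in the other 5 groups shown.

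Genes known as PPAR targets were gathered after the values were seen, those of ANGPTL4, PDK4 and PLIN2 included. Their counts are thus a description, and setting them beside the shares of all genes is no test. Of 18 such genes 10 had enough RNA to be tested, and 9 of the 10 log2 fold changes were above 0, against 40.4% of all genes. ANGPTL4 was the only one called (0.00877% of all genes were called higher), and 3 of the 10 were higher at an unadjusted p under 0.05 (ANGPTL4, PDK4 and PLIN2), against 1.23% of all genes. The list's median log2 fold change was 0.14, against -0.02 for all genes, and 0.42 without nucleotides. PDK4, the kinase that switches off pyruvate dehydrogenase when fatty acids are burned, was at 2.98, 3.41 and 2.52 FPKM with A771726 and nucleotides at 24 h, against 1.89, 2.12 and 1.79 FPKM with nucleotides alone. At 48 h PDK4 was at 4.30, 4.30 and 4.51 FPKM with A771726 and nucleotides, against 2.80, 2.71 and 3.04 FPKM with nucleotides alone. The PDK4 groups were separate at both times, yet the change of 0.46 ± 0.07 (SE) did not pass (limma, adjusted p = 0.0636). It passed without both libraries that stood apart (adjusted p = 0.04).

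The PDK4 response was larger without nucleotides, at 6.06, 6.89 and 5.44 FPKM with A771726, against 2.04, 2.59 and 1.80 FPKM in DMSO. The difference between the PDK4 responses with and without nucleotides at 24 h was -0.75 on the log2 scale (limma interaction, adjusted p = 0.0421). PLIN2, the coat protein of lipid droplets, was far more abundant, at 151.5, 127.8 and 147.2 FPKM with A771726 and nucleotides at 24 h, against 118.5, 127.3 and 124.0 FPKM with nucleotides alone. PLIN2 at 48 h was at 149.8, 159.6 and 149.5 FPKM with A771726 and nucleotides, against 112.6, 113.0 and 84.6 FPKM with nucleotides alone. Its groups were also separate, with a change of 0.39 on the log2 scale (limma, adjusted p = 0.559, and 0.04 without both libraries that stood apart). Of the other tested members, CPT1A, ACADVL, ACADM, HADHA, HADHB and SLC25A20, which carry or oxidise fatty acids, ranged from -0.01 to 0.24, with limma adjusted p = 1 each. Among the receptors, PPARG was the most abundant, at 16.9 to 26.8 FPKM with A771726 and nucleotides and 17.7 to 27.7 FPKM with nucleotides alone. RXRG had the largest log2 fold change of the 5 receptor genes tested, 0.21 (limma, adjusted p = 1).

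AhR targets gave 5 tested genes of 10, all with a log2 fold change above 0, and none was called (0.00877% of all genes were called higher). Their median log2 fold change was 0.28, and it stayed between 0.29 and 0.40 under the other scalings. The 0.40 came under TPM scaling, which moves the median of all genes up too. Without both libraries that stood apart the median of the AhR targets was 0.23, and it was 0.25 to 0.33 when each library was left out. CYP1A1, the monooxygenase by which AhR activation is usually read, stood at 1.92, 1.74 and 2.35 FPKM with A771726 and nucleotides at 24 h, against 1.09, 1.03 and 1.43 FPKM with nucleotides alone. At 48 h CYP1A1 was at 1.17, 1.52 and 1.24 FPKM with A771726 and nucleotides, against 0.632, 0.621 and 0.852 FPKM with nucleotides alone. All drug libraries lay above all controls of the same time, by 1.69-fold and 1.86-fold in mean FPKM. The log2 fold change of 0.45 ± 0.08 (SE) did not pass the test (limma, adjusted p = 0.182), and it passed without both libraries that stood apart (adjusted p = 0.04). In the absence of nucleotides CYP1A1 was at 7.23, 6.21 and 7.79 FPKM with A771726, against 1.57, 1.30 and 1.31 FPKM in DMSO. The CYP1A1 response with nucleotides was smaller than that by 1.29 on the log2 scale at 24 h (limma interaction, 95% confidence interval of the difference from -1.66 to -0.92, adjusted p = 0.00174).

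In the medium without nucleotides CYP1A1 was the only one of the 5 called higher. TIPARP, an ADP-ribosyltransferase that restrains AhR, was at 20.7, 21 and 16.1 FPKM with A771726 and nucleotides at 24 h, against 15.4, 18.4 and 15.4 FPKM with nucleotides alone. At 48 h TIPARP was at 15.5, 16.2 and 14.2 FPKM with A771726 and nucleotides, against 11.8, 12.6 and 11.2 FPKM with nucleotides alone. The TIPARP groups overlapped at 24 h and not at 48 h (log2 fold change over both times 0.28, limma, adjusted p = 0.82), and its response without nucleotides was -0.02. ALDH1A3, which makes retinoic acid, stood at 216 to 251 FPKM with A771726 and nucleotides at 24 h, against 203 to 214 FPKM with nucleotides alone. At 48 h it stood at 256 to 280 FPKM with A771726 and nucleotides, against 181 to 204 FPKM with nucleotides alone. Its log2 fold change was 0.32 with nucleotides (limma, adjusted p = 0.411) and -0.62 without (limma, adjusted p = 0.0288), and the difference at 24 h passed the test (0.78, adjusted p = 0.0134). AHRR and NQO1 had log2 fold changes of 0.16 and 0.13, and CYP1B1 stayed below 1 FPKM in every library. For AHR itself the 95% confidence interval with nucleotides ran from -0.21 to 0.20 around -0.01, while A771726 raised it without them (1.15, adjusted p = 0.00525).

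The other leading genes in each direction had small changes, none of which passed the test. They are the 10 higher and 10 lower genes of smallest unadjusted p with a mean of at least 5 FPKM and groups that did not overlap at either time, short RNAs left out. Such separation held for 33 higher (0.29%) and 38 lower genes (0.333%) of all 11398. IL24, a cytokine of the interleukin 10 family, led the higher genes, at 18.7, 16.5 and 20.2 FPKM with A771726 and nucleotides at 24 h, against 13.9, 15.5 and 14.3 FPKM with nucleotides alone. IL24 at 48 h was at 22.2, 22 and 24.3 FPKM with A771726 and nucleotides, against 15.0, 14.4 and 12.5 FPKM with nucleotides alone. Its log2 fold change was 0.50 ± 0.09 (SE, limma, adjusted p = 0.182), and 0.22 when DMSO libraries replaced those with nucleotides alone. The same change of control moved RCAN1 to 0.15 (0.28 with nucleotides alone as control) and, among the lower genes, CPA4 to -0.08 (-0.26) and ZBTB11-AS1 to -0.11 (-0.20). The other 9 ranged from 0.25 to 0.35 with limma adjusted p from 0.366 to 0.43. They were the amino acid transporter SLC1A4, the activin antagonist FST, the calcineurin inhibitor RCAN1, the cell surface hyaluronidase TMEM2, the class II chaperone gene HLA-DMA, TBC1D4, LPXN, ALDH1A3 and GDE1.

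Among these lower genes, which leave out short RNAs such as SNORA72, DKK1, a secreted Wnt antagonist, had the largest change. It was at 57.6, 57.3 and 51.5 FPKM with A771726 and nucleotides at 24 h, against 70.1, 90.8 and 71.8 FPKM with nucleotides alone. At 48 h DKK1 was at 29.3, 36.8 and 24.4 FPKM with A771726 and nucleotides, against 46.5, 52.0 and 37.7 FPKM with nucleotides alone. The log2 fold change of -0.53 ± 0.11 (SE, limma, adjusted p = 0.374) stood beside 0.47 without nucleotides, and the difference of -0.94 at 24 h passed the test (limma interaction, adjusted p = 0.0266). CALB2, the calcium buffer calretinin, was at 6.72 to 7.95 FPKM with A771726 and nucleotides at 24 h, against 9.36 to 10.9 FPKM with nucleotides alone (log2 fold change over both times -0.42, limma, adjusted p = 0.237). CAV1, the coat protein of caveolae, stood at 44.5 to 56.6 FPKM with A771726 and nucleotides at 24 h, against 58.6 to 67.6 FPKM with nucleotides alone (-0.41, adjusted p = 0.374, limma). PLK2, FAM129A, CPA4, PPME1, APOPT1 and the antisense gene ZBTB11-AS1 lay between -0.33 and -0.19. The strand setting of the counting is not given in the sources used here, so reads of an antisense gene and of its partner may not be told apart.

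**Figure D2:**
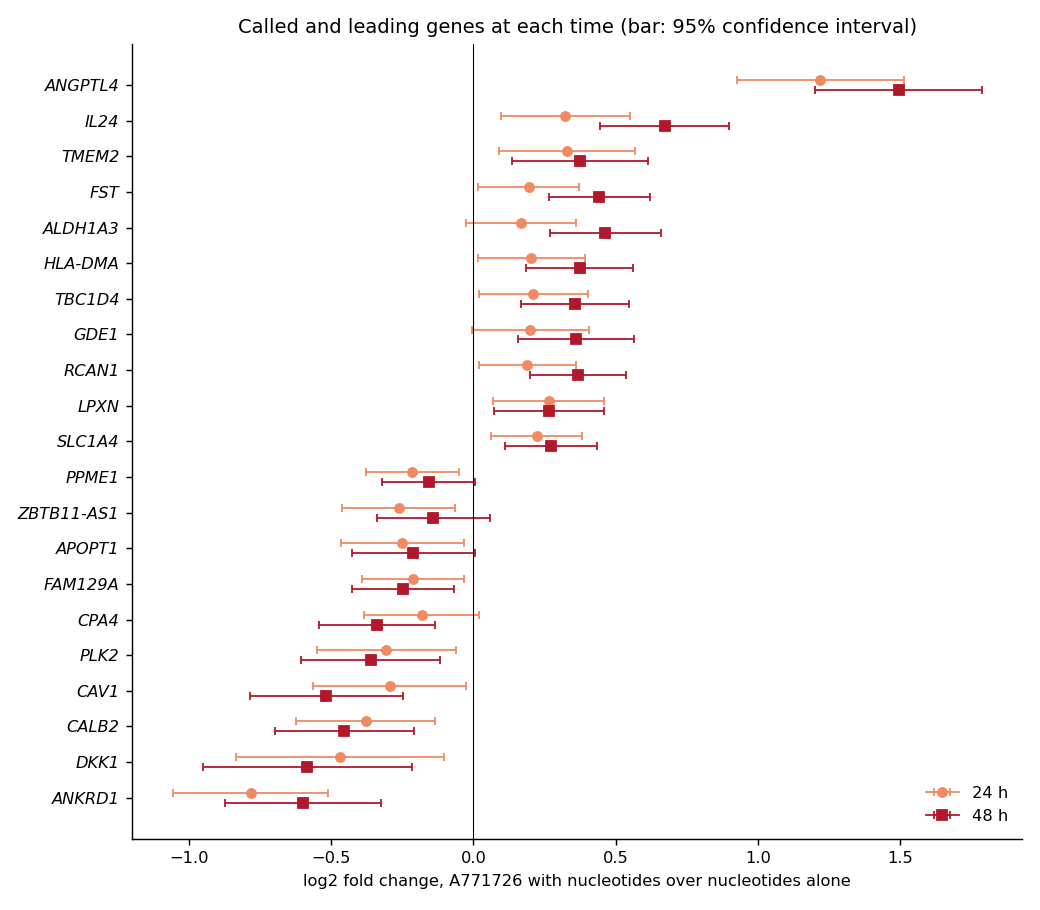
Log2 fold changes of A771726 with nucleotides over nucleotides alone (horizontal axis) for both called genes and 19 leading genes that were not called, at 24 h (circles) and 48 h (squares), with 95% confidence intervals. ANGPTL4 stood at 1.22 and 1.49, ANKRD1 at -0.78 and -0.60, and the rest were chosen for having the same direction at both times.

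The times were compared through genes chosen at one of them and read at the other. The fold changes of the times come from different libraries. The p-values for the choice and the filter on low values draw on the libraries of both times, so the reading is not fully independent of the choice. Of 69 genes higher at 48 h at an unadjusted p under 0.01, 59 were also above 0 at 24 h (85.5%, against 42.8% of all genes). Of 19 lower genes chosen the same way, 15 were also below 0 at 24 h (78.9%, against 56.9% of all genes). Genes chosen at 24 h were fewer: 6 of 9 higher genes and 9 of 13 lower genes kept their direction at 48 h, against 52.8% and 47.0% of all genes. A test of the difference between the times called 3 genes (EEF1A1, PLCG2 and ANKRD28), each listed at 0 in whole groups, and none once genes with a 0 were left out (257 genes, 2.25%, had an unadjusted p under 0.05). Taken by time, limma called 3 genes higher at 24 h (0.0263%) and 1 higher and 2 lower at 48 h. Among these adjusted calls, ANGPTL4 was the only gene not listed at 0 in a whole group. At an unadjusted p under 0.05 there were 60 higher (0.526%) and 207 lower genes (1.82%) at 24 h, and 219 higher (1.92%) and 110 lower genes (0.965%) at 48 h, 329 in all (2.89%).

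PLCG2, a phospholipase of immune receptor signalling, shows what such zeros look like. It was listed at 1175, 991 and 1141 FPKM with A771726 and nucleotides at 24 h and at 0 in the other 9 of the 12 libraries. EEF1A1, the translation elongation factor that every cell uses, had a listed value of 0 in each of the 3 drug libraries with nucleotides at 48 h, against 2044 to 3232 FPKM with nucleotides alone. ANKRD28 had 0 in the same 3 libraries and in all 3 with nucleotides alone at 24 h, and 16.8 to 24.6 FPKM in the other 6. In total 21 genes were listed at 0 throughout a group while another group had a median of at least 10 FPKM. No fold is given for them.

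The response without nucleotides was broad, and it was much smaller with them, though many of its directions were kept at 24 h. At 24 h A771726 without nucleotides changed 1065 of 11570 genes (9.2%), 680 higher (5.88%) and 385 lower (3.33%). Of these, 966 could also be tested with nucleotides, and ANGPTL4 and ANKRD1 were the only genes called in both. The 581 higher genes had a median log2 fold change of 0.04 at 24 h and 0.03 at 48 h with nucleotides, against 0.81 without. For the 385 lower genes the median with nucleotides was -0.15 at 24 h and 0.02 at 48 h, against -0.81 without. At 24 h 353 of the 581 kept their direction with nucleotides (60.8%, against 42.8% of all genes). So did 335 of the 385 (87%, against 57% of all genes). At 48 h the shares were 56.8% of the 581 (52.8% of all genes) and 44.9% of the 385 (47% of all genes). The interaction at 24 h was called for 491 of 11471 genes (4.28%), 142 with a positive difference (1.24%) and 349 with a negative one (3.04%). Among them were 297 of the 581 and 133 of the 385, each toward a smaller response with nucleotides. Those 581 and 385 genes were chosen in libraries that also enter this interaction, which favours that direction in advance. At an unadjusted p under 0.05 the interaction was positive for 599 genes (5.22%) and negative for 1143 (9.96%). The count of 1065 rests on single libraries, since it was 1834 without replicate 1 of A771726 and 176 without replicate 1 of DMSO, and the interaction count ranged from 226 to 654.

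**Figure D3:**
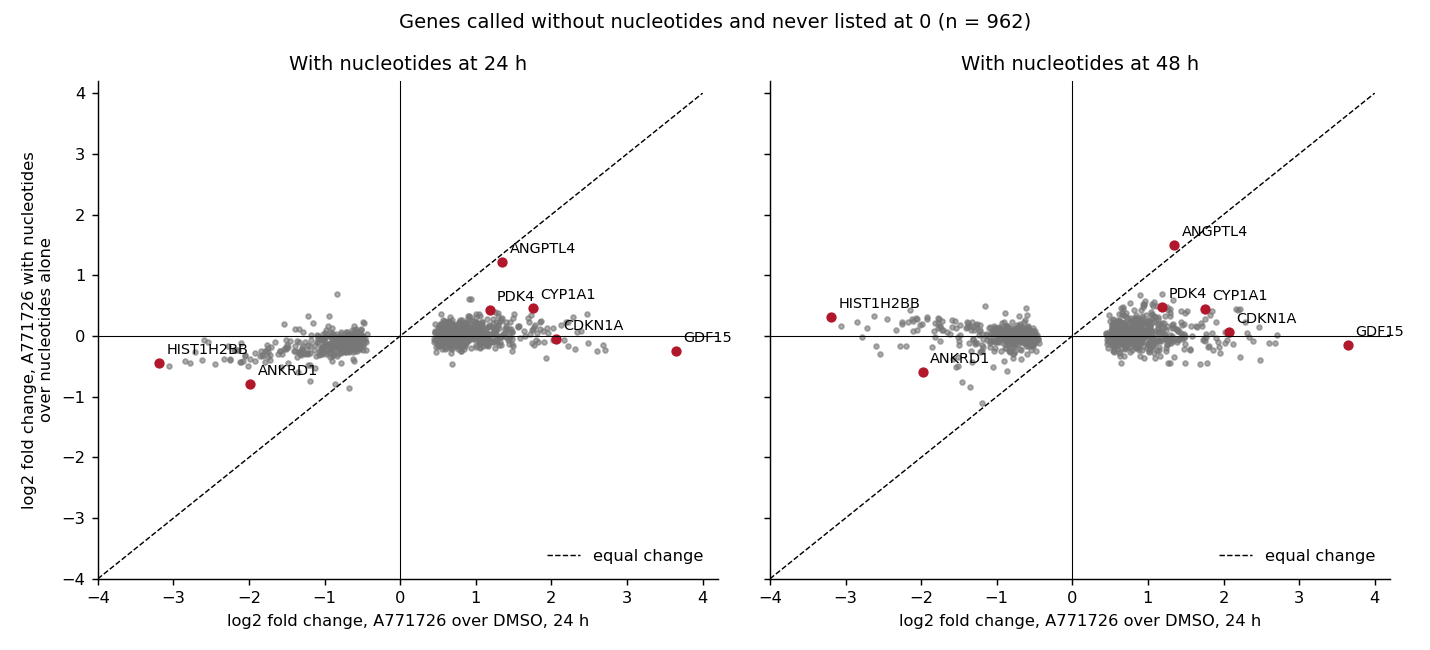
Log2 fold change of A771726 with nucleotides over nucleotides alone (vertical axis, left panel 24 h, right panel 48 h) against that of A771726 over DMSO at 24 h (horizontal axis), for 962 genes called without nucleotides and never listed at 0. Points lie near the horizontal line at 0, with slopes through the origin of 0.09 at 24 h and 0.02 at 48 h, and ANGPTL4 lies beside the dashed line of equal change. The Pearson correlation was 0.57 at 24 h and 0.07 at 48 h.

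Genes of the p53 response show the contrast. CDKN1A, the gene of the CDK inhibitor p21, was at 27.8, 24.3 and 35.3 FPKM with A771726 and nucleotides at 24 h, against 29.6, 26.5 and 34.3 FPKM with nucleotides alone. At 48 h it was at 27.5, 28.0 and 31.2 FPKM with A771726 and nucleotides, against 26.9, 25.7 and 29.9 FPKM with nucleotides alone. The groups overlapped at both times, and the 95% confidence interval of the log2 fold change ran from -0.20 to 0.22 around 0.01. Without nucleotides the CDKN1A response was 2.07. GDF15, a stress cytokine, averaged 0.662 ± 0.150 FPKM with A771726 and nucleotides at 24 h, against 0.958 ± 0.070 FPKM with nucleotides alone (SD, n = 3 each). Its log2 fold change over both times was -0.20 (limma, adjusted p = 1), against 3.65 without nucleotides. Of 28 p53 targets tested none was called with nucleotides, where their median was -0.04, and 23 were called higher without nucleotides, where it was 1.32 (5.88% of all genes were called higher there). TXNIP, an arrestin that curbs glucose uptake, was at 1.68 to 2.26 FPKM with A771726 and nucleotides at 48 h, against 2.77 to 3.34 FPKM with nucleotides alone. Its log2 fold change was -0.25 (limma, adjusted p = 1), opposite in sign to its 2.48 without nucleotides.

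Histone genes were the list with the most calls downwards without nucleotides. None of 46 replication-dependent histone genes was called with nucleotides (median log2 fold change over both times -0.05), while 37 were called lower without nucleotides (median -1.80), against 3.33% of all genes. By time the histone median with nucleotides was -0.31 at 24 h and 0.22 at 48 h, against -0.03 and 0.01 for all genes. The value at 24 h is the one measured at the time of the response without nucleotides. HIST1H2BB was at 778, 511 and 915 FPKM with A771726 and nucleotides at 24 h, against 913, 924 and 1098 FPKM with nucleotides alone. At 48 h it was at 462, 471 and 484 FPKM with A771726 and nucleotides, against 446, 455 and 271 FPKM with nucleotides alone, so the groups were not ordered the same way at both times. Histone genes are near-identical copies, and the share of reads given to each is uncertain. SNHG12, a snoRNA host gene, averaged 28.0 ± 5.51 FPKM with A771726 and nucleotides at 24 h, against 32.8 ± 2.10 FPKM with nucleotides alone (SD, n = 3 each). NPM1, the nucleolar protein nucleophosmin, and MCM5, a subunit of the replicative helicase, had log2 fold changes of -0.06 and -0.07 (limma, adjusted p = 1 each). The lists of nucleolar genes (61 tested), snoRNA hosts (20), ribosomal proteins (78), S phase genes (40) and G2/M genes (34) had no call either, with medians over both times between -0.08 and 0.00. At 24 h their medians ran from -0.27 (ribosomal proteins) to -0.10 (S phase genes). At 48 h they ran from 0.02 (snoRNA hosts) to 0.14 (ribosomal proteins). Without nucleotides, 14 of the 61 nucleolar genes, 13 of the 20 snoRNA hosts, 11 of the 78 ribosomal protein genes, 10 of the 40 S phase genes and 2 of the 34 G2/M genes were called lower. The interaction at 24 h was called for 20 of the 46 histone genes, 9 snoRNA hosts, 6 S phase genes and 4 nucleolar genes. It was called for none of the ribosomal protein or G2/M genes, and for 4.28% of all genes, a share that the nucleolar genes come near. TPM scaling moves the median of all genes over both times to 0.09. It turns the medians of these lists over both times, and those of the histone and p53 lists, positive. Quantile normalization does so for the histone, ribosomal protein and G2/M lists.

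**Figure D4:**
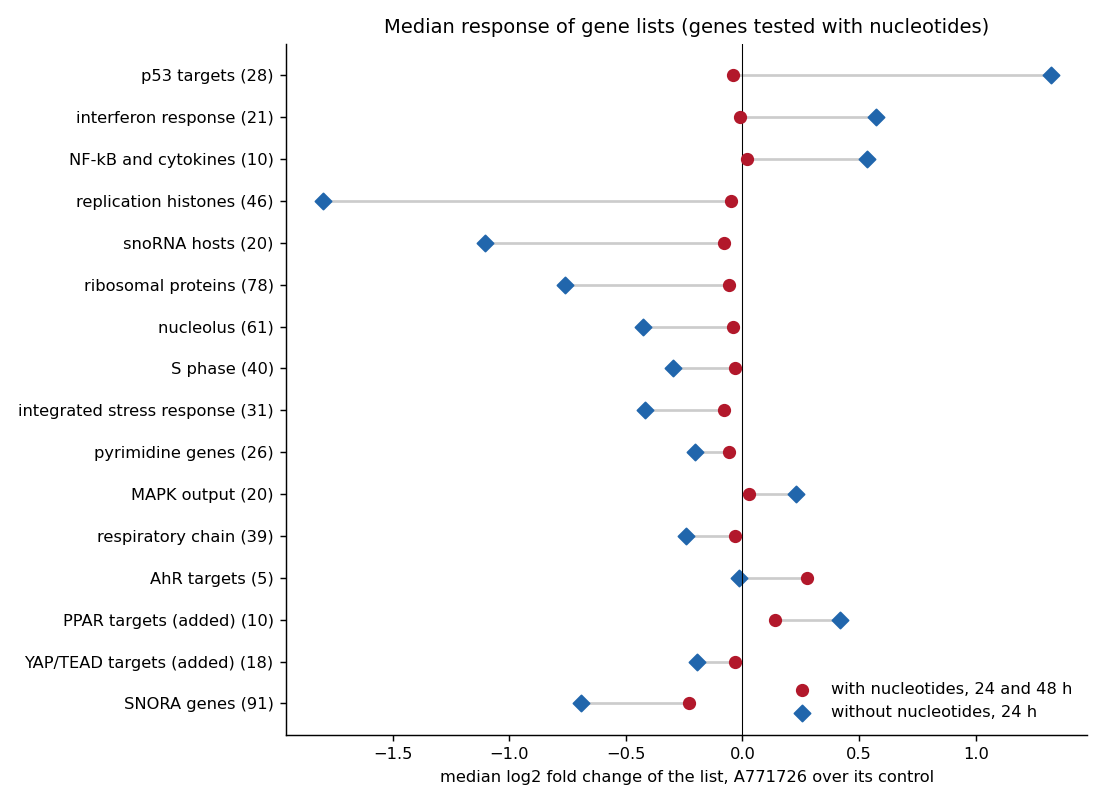
Median log2 fold change (horizontal axis) of 16 gene lists with nucleotides over both times (circles) and without nucleotides at 24 h (diamonds), with the number of genes tested with nucleotides in brackets. Medians with nucleotides lie between -0.23 (SNORA genes) and 0.28 (AhR targets), and p53 targets stand at -0.04, against 1.32 without nucleotides. The PPAR, YAP and TEAD, and SNORA lists were formed after the values were seen. A median over both times can average opposite signs, as for replication histones (-0.31 at 24 h and 0.22 at 48 h).

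Neither DHODH, the drug's target, nor DDX21, the helicase named in the study's title, was called with nucleotides. DHODH was at 7.77, 6.23 and 8.20 FPKM with A771726 and nucleotides at 24 h, against 8.75, 7.93 and 9.47 FPKM with nucleotides alone. At 48 h DHODH was at 8.29, 8.17 and 8.52 FPKM with A771726 and nucleotides, against 8.57, 7.97 and 7.25 FPKM with nucleotides alone. The groups overlapped, with a 95% confidence interval of the log2 fold change from -0.26 to 0.11. Without nucleotides DHODH was called lower at 24 h (-0.61, limma, adjusted p = 0.0295), and the difference between the responses did not pass (limma interaction, adjusted p = 0.3). DDX21, a nucleolar RNA helicase, averaged 82.1 ± 9.64 FPKM with A771726 and nucleotides at 24 h, against 89.1 ± 12.6 FPKM with nucleotides alone (SD, n = 3 each). Its log2 fold change over both times was -0.04, with a 95% confidence interval from -0.29 to 0.21. Without nucleotides DDX21 was called lower at 24 h (-0.81, limma, adjusted p = 0.0211), and the difference did not pass here either (limma interaction, adjusted p = 0.103). CDK9, the kinase of the elongation factor P-TEFb, and HEXIM1, its inhibitor, had log2 fold changes of -0.01 each (limma, adjusted p = 1). Among 26 genes of pyrimidine synthesis and salvage none was called, and log2 fold changes ran from -0.15 to 0.05. Of 39 genes of the respiratory chain, to which DHODH passes electrons through ubiquinone, none was called either (median -0.03 over both times, -0.20 at 24 h and 0.16 at 48 h). Purine genes (17 tested), the integrated stress response (31), mitochondrial stress (10), interferon genes (21), NRF2 targets (17), sterol and fatty acid synthesis (28) and P-TEFb with 7SK partners (28) likewise had no call.

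Some of the response without nucleotides was still visible in separate groups. Of the 581 genes called higher without nucleotides, 14 had all libraries with A771726 and nucleotides above all with nucleotides alone at both times (2.41%, against 0.29% of all genes tested). Of the 385 called lower, 10 were separated downwards (2.6%, against 0.333%), and 9 without EEF1A1, which is separate at 48 h only through its listed zeros. The first set holds ANGPTL4, CYP1A1, GDE1, HLA-DMA, HLA-DQB1, IL24, LINC00189, LPXN, MYO1E, NEDD9, NRCAM, PART1, PDK4 and TMEM2. The second holds ANKRD1, CAV1, CPA4, EEF1A1, FAM129A, FSTL1, SNORA44, SNORA72, SRD5A1 and UNG. Separation in the opposite direction was seen for F11R, RASSF5 and ZNF337 among the higher genes and for ALDH1A3 among the lower ones. NRCAM, a neural cell adhesion molecule, was at 3.07, 4.4 and 2.41 FPKM with A771726 and nucleotides at 24 h, against 1.81, 1.94 and 1.55 FPKM with nucleotides alone. The NRCAM response was 0.54 on the log2 scale with nucleotides (limma, adjusted p = 0.366) and 0.93 without (limma, adjusted p = 0.0143). TMEM2 was at 51.5, 53.5 and 41.0 FPKM with A771726 and nucleotides at 24 h, against 40.1, 39.5 and 35.6 FPKM with nucleotides alone, and its response with nucleotides was smaller than without by 0.96 (limma interaction, adjusted p = 0.0068). CPA4, a carboxypeptidase, was at 16.3, 16.5 and 16.3 FPKM with A771726 and nucleotides at 24 h, against 18.2, 19.1 and 18.8 FPKM with nucleotides alone. The CPA4 response was -1.51 without nucleotides, and the difference of 1.33 passed the test (limma interaction, adjusted p = 0.00012).

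In other lists no gene was called, and the members with an unadjusted p under 0.05 are given as values. The MAPK output list had 2 of 20, both higher (1.23% of all genes): SPRY2, a feedback inhibitor of the pathway, at 76.5, 76.0 and 77.6 FPKM with A771726 and nucleotides at 48 h, against 63.6, 63.4 and 70.6 FPKM with nucleotides alone, and TRIB2, a pseudokinase (log2 fold changes over both times 0.15 and 0.22, limma, adjusted p = 1 each). FOS, the only one among 19 immediate early genes, had a log2 fold change of 0.33 over both times (limma, adjusted p = 0.716). At 48 h FOS was at 3.11, 2.65 and 3.58 FPKM with A771726 and nucleotides, against 1.77, 1.93 and 2.43 FPKM with nucleotides alone. Its groups overlapped at 24 h, at 2.57 to 3.59 FPKM with A771726 and nucleotides, against 2.26 to 2.78 FPKM with nucleotides alone. NGFR, a neurotrophin receptor of the neural crest, was at 6.88, 7.10 and 6.06 FPKM with A771726 and nucleotides at 48 h, against 12.6, 10.6 and 14.1 FPKM with nucleotides alone. At 24 h the NGFR groups overlapped, and the log2 fold change over both times was -0.55 ± 0.13 (SE, limma, adjusted p = 0.411). KRT14, a keratin of basal keratinocytes, had a change of -0.41 on the log2 scale (limma, adjusted p = 0.559), and KRT10, the only other keratinocyte marker tested, one of 0.07 (limma, adjusted p = 1) with groups separate upwards at both times. The summed FPKM of 9 keratinocyte markers was 10.7 to 10.9 with A771726 and nucleotides at 48 h and 11.5 to 13.0 with nucleotides alone. These sums overlapped at 24 h, at 11.4 to 13.8 with A771726 and nucleotides and 13.3 to 14.2 with nucleotides alone.

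The YAP and TEAD targets, gathered after ANKRD1 was seen, were not uniform in direction. Of 22 genes 18 were tested, ANKRD1 was the only one called, and 13 of the 18 log2 fold changes were below 0 (median -0.03, which turns to 0.08 under TPM scaling). At an unadjusted p under 0.05, 3 of the 18 were higher and 1 lower, against 1.23% and 1.32% of all genes. The higher ones were IGFBP3, NT5E and RBMS3, by 0.25, 0.22 and 0.17 on the log2 scale (limma, adjusted p from 0.816 to 1). CTGF, a matricellular protein and classical YAP target, was at 9.68, 17.5 and 6.67 FPKM with A771726 and nucleotides at 24 h, against 9.16, 6.22 and 7.22 FPKM with nucleotides alone. At 48 h CTGF was at 3.31, 3.67 and 2.92 FPKM with A771726 and nucleotides, against 3.77, 4.36 and 12 FPKM with nucleotides alone. The high values, 17.5 and 12 FPKM, belong to the libraries that stood apart, and CYR61 was highest in the same libraries of these groups, at 15.2 and 13.5 FPKM.

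Small nucleolar RNAs held a lower share of the FPKM sum with A771726 and nucleotides. Whether fragment size selection differed between libraries cannot be seen from FPKM and was not tested, so this describes FPKM only. The SNORA, SNORD and SCARNA lists were formed after the values were seen, so their counts and p-values are a description. P-values of shares were not adjusted for the number of library measures tested. Genes named SNOR or SCARNA held 26.2%, 28.4% and 27.2% of the FPKM sum with A771726 and nucleotides at 24 h, against 32.6%, 30.0% and 32.2% with nucleotides alone. At 48 h they held 24.4%, 25.7% and 23.9% with A771726 and nucleotides, against 30.0%, 30.9% and 27.1% with nucleotides alone. The groups were separate at both times, and the mean share fell to 26.0% with A771726 and nucleotides, against 30.5% with nucleotides alone (exact permutation within each time, two-sided p = 0.005, the smallest possible). Box C/D genes (SNORD) held 12.7% with A771726 and nucleotides and 15.9% with nucleotides alone (p = 0.005, exact permutation), and box H/ACA genes (SNORA) 12% with A771726 and nucleotides and 13.3% with nucleotides alone (p = 0.06, exact permutation). The difference in mean share was -4.49 points for all these genes and -3.21 points for SNORD. SNORD genes listed at 0 throughout a group, such as SNORD26 and SNORD28, are included, and no SNORD share without them was computed. SNORA genes never listed at 0 held 11.9% with A771726 and nucleotides and 13.3% with nucleotides alone (p = 0.06, exact permutation). Box C/D RNAs guide methylation and box H/ACA RNAs pseudouridylation of ribosomal RNA. In libraries without nucleotides the share was 23.2%, 28.3% and 23.0% with A771726, against 31.4%, 35.2% and 32.4% in DMSO.

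**Figure D5:**
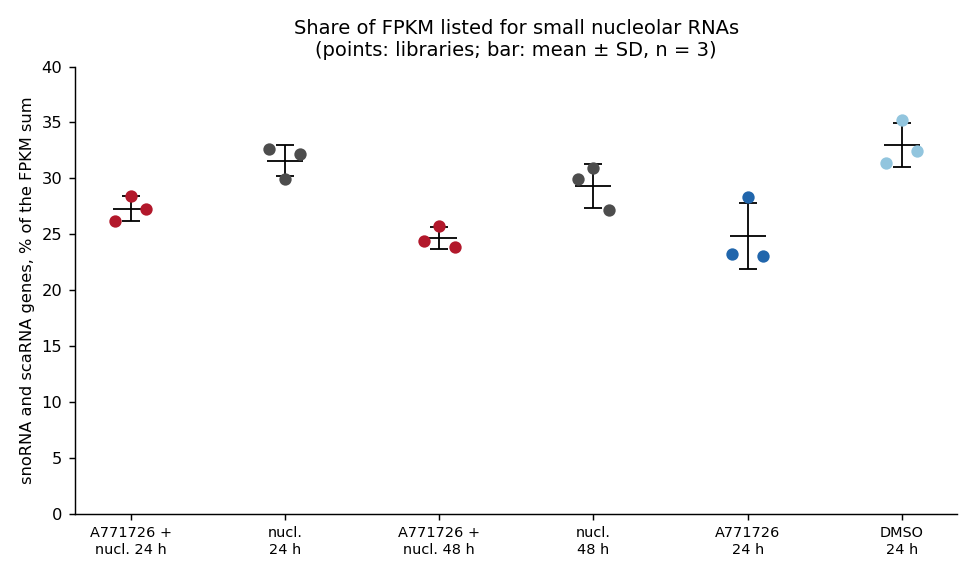
Share of the FPKM sum (vertical axis, percent) held by small nucleolar and Cajal body RNA genes in each library, by group; bars give the mean ± SD of 3 libraries. The 6 libraries with A771726 and nucleotides lie between 23.9% and 28.4%, below the libraries with nucleotides alone of the same time.

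Gene by gene, 69 of the 91 SNORA genes tested were never listed at 0, and 25 of these 69 were lower at an unadjusted p under 0.05, against 1.32% of all genes, and none higher. Their median log2 fold change was -0.25. Of the other 22, listed at 0 in some library, 4 were higher and none lower (median 0.23), which makes 25 lower and 4 higher of the 91 (median -0.23). None was called over all genes, and SNORA26 and SNORA44 were called without both libraries that stood apart (limma, adjusted p = 0.04 each). SNORA72 was at 85.1, 63.9 and 95.2 FPKM with A771726 and nucleotides at 24 h, against 130.6, 152.6 and 122.5 FPKM with nucleotides alone. At 48 h it was at 38.8, 59.9 and 44.4 FPKM with A771726 and nucleotides, against 90.6, 125.2 and 93.5 FPKM with nucleotides alone. SNORA72 had the smallest p of the SNORA genes, with a change of -0.92 ± 0.14 on the log2 scale (SE, limma, adjusted p = 0.106). SNORA44 was at 152.3, 208.0 and 208.7 FPKM with A771726 and nucleotides at 24 h, against 365.2, 301.0 and 312.6 FPKM with nucleotides alone. Most SNORD genes were listed at 0 in some library and could not be read singly. Of 78 SNORD genes tested, 46 were below 0 and 32 above 0, and the median was 0 at each time. At an unadjusted p under 0.05, 3 of the 78 were lower and 0 higher. Of 23 SCARNA genes tested, 12 were above 0 (median 0.03), with 2 higher and 1 lower at that p. The FPKM sums differed between the groups too, and their part in this difference was not tested.

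Without both libraries that stood apart, limma called 13 genes over both times (0.115%), 9 higher (0.0797%) and 4 lower (0.0354%). The higher genes were ANGPTL4, IL24, PDK4, CYP1A1, PLIN2, NRCAM, CEMIP, FAIM3 and SAT1, with log2 fold changes from 0.30 to 1.47 and adjusted p from 1.68e-05 to 0.04. The lower genes were ANKRD1, TMSB4X, SNORA26 and SNORA44, from -0.81 to -0.38. CEMIP, a hyaluronan-binding protein, was at 17.1, 18.5 and 15.9 FPKM with A771726 and nucleotides at 24 h, against 12.3, 9.51 and 11.2 FPKM with nucleotides alone, and the groups overlapped at 48 h. SAT1, an enzyme of polyamine breakdown, was at 12.5, 9.89 and 12.2 FPKM with A771726 and nucleotides at 24 h, against 10.0, 9.70 and 9.32 FPKM with nucleotides alone. SAT1 responded far more without nucleotides, where its log2 fold change was 2.22, and the difference of -1.99 passed the test (limma interaction, adjusted p = 0.000797). With all 12 libraries, 11 of these 13 genes were not called.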

How the data were processed

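RNA from A375 cells was depleted of ribosomal RNA and sequenced as paired reads of 100 bases, per the labels' protocols. Per the submitters' processing notes, cutadapt, TopHat2 2.0.11 and Cufflinks 2.2.1 were used with hg19. For the cutadapt version, annotation, strand setting and filters no source used here gives a value. The authors deposited FPKM per gene and library (25268 genes), with no counts. Low values showed no steps of whole reads, so depth is unknown and no interval from counts can be given.

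Here log2(FPKM + 1) was fitted with limma 3.58.1 in R 4.3.3 for genes whose mean over the fitted libraries reached 1 FPKM, with time as a block (A771726 with nucleotides against nucleotides alone) or with 4 group means (each time, and interactions). P-values were Benjamini-Hochberg adjusted over all genes tested, and calls were made below 0.05. Library shares were tested by exact permutation of the drug label within each time. The code was tested on simulated data. Libraries of A771726 without nucleotides at 48 h were left out because 2 of 3 stand apart, and DMSO libraries at 48 h entered only an alternative.

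Comparisons, lists and the naming rule were chosen with earlier results of these data known. Named genes were the called genes with at least 5 FPKM in the higher group (none was), filled up to 10 a direction by smallest unadjusted p among genes of that level whose groups were separate at both times, without short RNAs or zeros. A standing set, up to 5 called genes a direction by time and for the interactions, and up to 4 called and 3 uncalled members of each list were also named. ANGPTL4, ANKRD1, PDK4, PLIN2, FOS, the members of the PPAR, receptor and YAP lists, single SNORA genes, AHR, list members named for an unadjusted p under 0.05 and genes named for separate groups or for calls without the libraries that stood apart fall outside that rule and were chosen after their values were seen. The SNORA, SNORD and SCARNA lists were also formed after the values were seen. No 2 of the 12 libraries were alike enough to be 1 library deposited repeatedly. Some genes that the rule names are not reported here. Figures were drawn with matplotlib 3.10.9.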

Additional observations from a re-analysis of the deposited data

Results flagged for a closer look

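The drug effect with nucleotides differed between 48 h and 24 h for 3 genes by the limma interaction test, EEF1A1 (-11.06 on the log2 scale), PLCG2 (-10.10) and ANKRD28 (-8.86). Each is listed at 0 in all 3 libraries of at least 1 group, so these values are no fold changes.

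At 24 h the drug effect with nucleotides minus that without was flagged by the interaction test for the genes with the largest differences. Positive differences were 12.15 for SNORD116-15 and 4.36 for ANKRD28, which are listed at 0 in whole groups, and 2.74 for HIST1H2BB, 2.57 for HIST3H2A and 2.52 for HIST1H2BM. Negative differences were -3.89 for GDF15, -2.98 for PVRL4, -2.94 for TP53I3, -2.85 for RPL13AP20 and -2.83 for BTG2. PVRL4 stayed below 1 FPKM in every library but those with A771726 alone among the groups compared.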

How the results depend on the processing

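Of the 2 calls over both times, ANGPTL4 held in all 24 alternatives that tested it and ANKRD1 in 12 of 24. The count was 4 with no filter on low values, 0 at a mean of at least 5 FPKM (which removes both genes), 9 under TPM scaling (8 higher, 1 lower), 8 with 21 libraries sharing the spread, and 1 to 2 when each library was left out. Added after seeing the data, it was 13 without both libraries that stood apart and 239 (145 higher, 94 lower) with limma's library weights, which were estimated from the same 12 libraries and could not be fitted for the single times. By time, 3 calls became 1 at 24 h and 1 at 48 h when genes listed at 0 were left out, and the difference between times went to 0. At 48 h no filter gave 10 and TPM scaling 6. Leaving out a library gave 2 to 3 at 24 h, 3 to 4 at 48 h and 3 to 4 for their difference.

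Without nucleotides 1065 calls became 518 at a mean of at least 5 FPKM and 4203 under TPM scaling (4057 higher, 146 lower, with the median of all genes at 0.48), and 176 to 1834 when a library was left out. The interaction count of 491 became 1038 with no filter, 201 at a mean of at least 5 FPKM and 1075 under TPM scaling (76 higher, 999 lower), and 226 to 654 when a library was left out. The cause of these shifts was not tested.

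Replicate numbers are shared between groups, but same-numbered libraries did not deviate together (correlations from -0.21 to 0.19). With a replicate block the count was 1 with nucleotides (ANKRD1 was lost, limma, adjusted p = 0.119), 400 without nucleotides and 1079 for the interaction. Precision is limited by 3 libraries a group and by unknown depth, and low genes such as ANGPTL4 and CYP1A1 have fold changes that depend on the pseudocount.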
